A study of Mus musculus with 17 samples.

Results

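The glomerular basement membrane is the sheet of matrix between the fenestrated endothelium and the podocytes of the kidney filter. The 9 genes described here encode its main structural proteins: the 6 collagen IV chains (Col4a1, Col4a2, Col4a3, Col4a4, Col4a5 and Col4a6), the laminin chains Lama5 and Lamb2, and Agrn, the gene of the heparan sulfate proteoglycan agrin. They were chosen by name, with earlier results of these data known. All 9 were found among the 53379 genes of the deposited count table, and all 9 were among the 17766 genes that passed the filter on low counts.

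Messenger RNA had been sequenced from kidney cortex enriched for glomeruli in 17 mice of the BTBR strain, all 24 weeks old. The 5 wild type mice (genotype label WT-d30) have no treatment label. The other mice were ob/ob, with the germline ob mutation of Lep, which encodes leptin, and are a model of obesity with diabetic kidney disease. Of these, 5 had received saline (genotype label ob/ob-d30), and 7 had received 5 mg per kg of atrasentan daily with their drinking water (genotype label BTBR ob). Atrasentan blocks the type A endothelin receptor. Both treatments ran for 6 weeks from the age of 18 weeks, so there is no group of wild type mice given atrasentan. The meaning of d30 is not stated in the labels.

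Collagen IV chains assemble into helical trimers inside the cell, and these link into a network outside it. A trimer of Col4a1 and Col4a2 products is laid down in the developing glomerulus by endothelial, mesangial and epithelial cells, and in the adult it persists in the mesangial matrix and on the endothelial side. As the glomerulus matures, podocytes add a trimer of Col4a3, Col4a4 and Col4a5 products, which becomes the main network of the mature membrane and whose loss causes Alport syndrome. Col4a6 joins Col4a5 in Bowman's capsule and around smooth muscle, the Lama5 and Lamb2 chains belong to the laminin of the mature membrane, and agrin carries heparan sulfate and binds laminin.

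The 6 collagen genes lie head to head in 3 pairs, each member read away from its partner, and the DNA at the start sites is shown here. Levels ran in parallel across the libraries within each pair, but not only there. Col4a3 and Col4a5, on different chromosomes, correlated at r = 0.97, and the pair Col4a3 and Col4a4 at r = 0.96. Whether the start regions have a part in the levels was not tested. On GRCm38 the Col4a1 gene spans chr8:11198423-11312826 on the minus strand and Col4a2 spans chr8:11312805-11449287 on the plus strand, so that their annotated first exons overlap by 22 bases. Col4a4 (chr1:82448423-82586849, minus strand) and Col4a3 (chr1:82586921-82722059, plus strand) have start sites 72 bases apart. Col4a6 (chrX:141165403-141474076, minus strand) and Col4a5 (chrX:141475385-141689234, plus strand) start 1309 bases apart. Of 22028 protein-coding genes in the annotation, 721 (3.273%) have a coding partner that starts head to head within 100 bases, with an overlap of at most 100 bases allowed, and 1797 (8.158%) within 2000 bases. The sequences below were read from RefSeq promoters on GRCm38, 5′ to 3′ on the strand named, with matches to the motifs searched in capitals.
Col4a1/Col4a2 first-exon overlap, chr8:11312805-11312826, plus strand: agtgcgcGGGCGGcgtctccaa
Col4a4/Col4a3 between the start sites, chr1:82586850-82586920, plus strand: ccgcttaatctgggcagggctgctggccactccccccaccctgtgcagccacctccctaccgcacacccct
Col4a5 before its start site, chrX:141475169-141475384, plus strand: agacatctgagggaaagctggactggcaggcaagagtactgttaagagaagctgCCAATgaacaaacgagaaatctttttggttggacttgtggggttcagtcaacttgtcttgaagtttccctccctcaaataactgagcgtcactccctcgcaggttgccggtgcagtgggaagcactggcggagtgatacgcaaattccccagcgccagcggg
Col4a6 before its start site, chrX:141474077-141474326, minus strand: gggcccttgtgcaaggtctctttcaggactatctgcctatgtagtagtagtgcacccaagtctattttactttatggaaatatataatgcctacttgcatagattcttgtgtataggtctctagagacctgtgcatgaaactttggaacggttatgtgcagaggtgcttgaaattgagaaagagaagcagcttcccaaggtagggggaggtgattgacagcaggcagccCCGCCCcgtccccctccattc

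Searched on both strands were the GC box, spelled GGGCGG, the box CCAAT, the core of a TATA box, spelled TATAAA, and a homeodomain core, spelled TAATTA. No motif contains another of them. The 22 bases shared by Col4a1 and Col4a2 hold 1 GGGCGG, which 7.19% of all RefSeq promoters hold in the 22 bases before their start. The 71 bases between Col4a4 and Col4a3 are 69.0% G and C and hold none of the 4 motifs. The stretch before Col4a5 holds 1 CCAAT (30.8% of promoters do over the same length), and the stretch before Col4a6 holds 1 GGGCGG, written CCGCCC on its strand (32.7%). RefSeq windows of 250 bases before the start were found for 8 of the 9 genes, and none of them holds TATAAA, which 12.37% of 32851 promoters hold, or TAATTA, which 4.84% hold. Agrn has 12 matches to GGGCGG in the window of its upstream start and 2 in that of a start further inside the gene, and Lama5 has 4. Col4a2 has 2, Col4a5 and Col4a6 have 1 each, and Col4a1, Col4a4 and Lamb2 have 0. The match of Col4a5 lies outside the stretch shown above. Of all promoters, 32.74% hold GGGCGG in this window. Lama5 (chr2:180176373-180225859, minus strand), Lamb2 (chr9:108479736-108490530, plus strand) and Agrn (chr4:156165290-156197488, minus strand) have no head-to-head partner among the 9. The counting is not stated to use strand, and the opposite-strand transcript C430014B12Rik overlaps 5.649% of the exon bases of Col4a3, but it drew 454 reads in all libraries against 167819 for Col4a3.

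Gene reads per library ran from 29161833 to 52528747, and the fewest reads on any of the 9 genes in a library were 26, on Col4a6 in an atrasentan library. The preparation held the cells its name says: the podocyte marker Podxl stood at 2784 ± 553 CPM in wild type (CPM are gene reads scaled to library size, mean ± SD, n = 5), and the endothelial marker Emcn at 1795 ± 314. It also held tubule, since the proximal tubule marker Slc34a1 stood at 666 ± 287 CPM in wild type, 2533 ± 1576 with saline and 238 ± 203 with atrasentan (n = 7). The atrasentan libraries stood apart in 2 library measures: 21396 to 23081 genes were detected, against 23901 to 25313 in the other libraries, and 3.17% to 5.65% of reads lay outside genes, against 5.95% to 8.58%. Their part in the results was not tested. All libraries carry the same batch label, and the library numbers used below only name a mouse within its group.

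With atrasentan the collagen IV chains moved in opposite directions. Against saline, Col4a3, Col4a4, Col4a5 and Col4a6 fell and Col4a2 rose, and against wild type the same 4 fell and both Col4a1 and Col4a2 rose. Lama5, Lamb2 and Agrn did not pass the test in any of the 3 comparisons. Between saline-treated ob/ob and wild type mice none of the 9 genes passed (edgeR quasi-likelihood test, Benjamini-Hochberg adjusted over all genes, threshold 0.05, here and below), while 5.12% of all genes did (3.21% higher and 1.91% lower). None of the 9 separated the groups without overlap either, beside 7.42% of all genes (3.46% higher and 3.96% lower). At an unadjusted p under 0.05 the count was 1, Col4a2, beside 21.5% of all genes, and it was 0 with DESeq2 and with limma-voom after adjustment.

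Against saline, 5 of the 9 genes were called with atrasentan, beside 33.8% of all genes tested: 4 lower (18.5% of all genes) and 1 higher (15.3%). Against wild type 6 of 9 were called, beside 29.2% of all genes: 4 lower (14.5%) and 2 higher (14.7%). With upper-quartile scaling 1897 genes were higher and 3153 lower against wild type, in place of 2619 and 2571, and the same number of the 9 genes was called in each direction. The median log2 fold change of the 9 genes was -0.052 for saline against wild type, 0.12 for atrasentan against saline and 0.073 for atrasentan against wild type, beside medians of all genes within 0.01 of 0. The comparisons share groups: saline and wild type mice each enter 2 of them, as do the atrasentan mice, so they do not support each other.

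**Figure D1:**
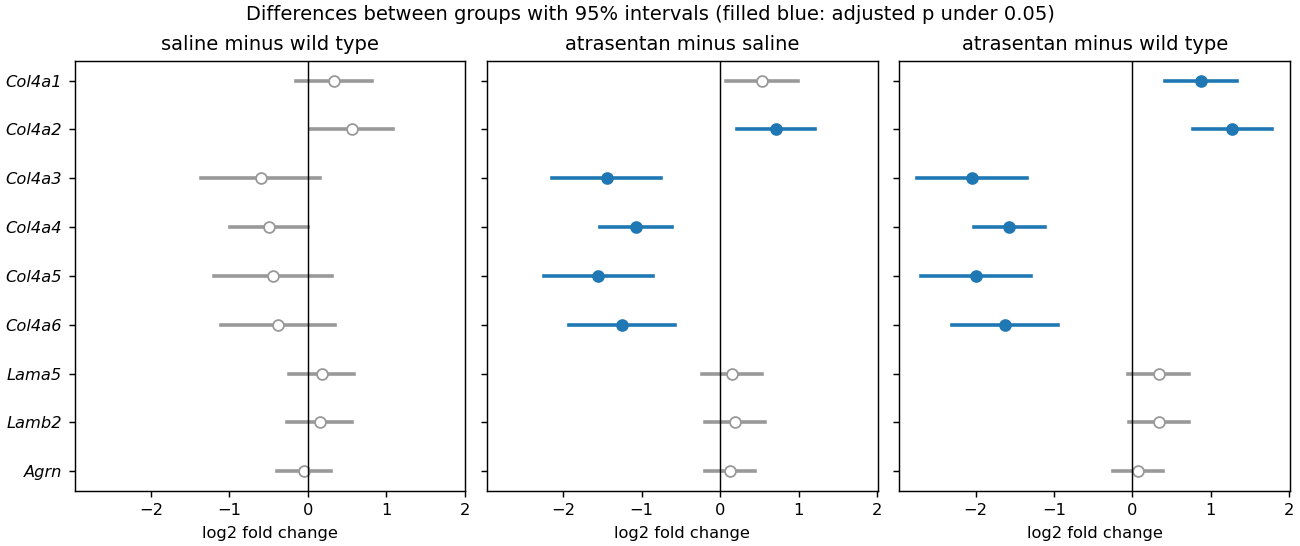
Log2 fold change of each of the 9 genes (point) with its 95% interval (line) in the 3 comparisons, from the edgeR fit of all 17 libraries; filled blue points had an adjusted p under 0.05. The intervals of Col4a3, Col4a4, Col4a5 and Col4a6 lie below 0 in both comparisons with atrasentan, that of Col4a2 lies above 0, and those of Lama5, Lamb2 and Agrn span 0 throughout.

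Col4a3, whose product is the chain that carries the Goodpasture antigen, was the most abundant of the mature chains in reads per gene length. Its levels in the 5 wild type mice were 581, 330.0, 594, 393 and 352 CPM. In the 5 saline mice they were 259, 174, 243, 444 and 367 CPM. In the 7 atrasentan mice the lowest was 48.5, the median 88.5 and the highest 209.8 CPM. Every atrasentan library lay below every wild type library, and the range with atrasentan overlapped that with saline through atrasentan library 1 and saline library 2. Col4a3 fell 2.72-fold against saline (log2 fold change -1.45 ± 0.33, SE, 95% interval -2.14 to -0.75, adjusted p = 0.0035) and 4.12-fold against wild type (-2.04 ± 0.33, adjusted p = 0.000275). Saline and wild type mice differed by -0.60 ± 0.36 (adjusted p = 0.366), which is within the spread between mice.

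Col4a4, which shares its start region with Col4a3, gave the clearest separation. Its levels were 179.8, 118, 187, 133 and 112 CPM in wild type. With saline they were 105, 74.6, 101, 126 and 109 CPM. With atrasentan they ran from 23.6 to 69.3 CPM, with a median of 51.8. All 7 atrasentan libraries lay below all saline and all wild type libraries, which made Col4a4 the only 1 of the 9 genes without overlap against saline, where 5.76% of all genes lay lower without overlap. It fell 2.1-fold against saline (log2 fold change -1.07 ± 0.22, adjusted p = 0.00156) and 2.96-fold against wild type (-1.57 ± 0.22, adjusted p = 7.82e-05). For saline against wild type the difference was -0.50 ± 0.24 (unadjusted p = 0.0504, adjusted p = 0.233).

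Col4a5, the X-linked chain that is mutated in most families with Alport syndrome, was the least abundant of the mature chains. It stood at 63.9, 45.1, 76.2, 50.2 and 37.3 CPM in wild type. With saline it stood at 36.3, 18.2, 43.4, 54.6 and 48.4 CPM. With atrasentan the lowest level was 7.68, the median 8.30 and the highest 23.7 CPM. The atrasentan mice formed no single cluster: 4 of them lay between 7.68 and 8.30 CPM and the other 3 between 17.3 and 23.7 CPM. Of those 3, 2 lay above saline library 2, and all lay below every other saline and wild type library. Col4a5 fell 2.94-fold against saline (log2 fold change -1.55 ± 0.33, adjusted p = 0.00219) and 3.99-fold against wild type (-1.99 ± 0.33, adjusted p = 0.000323), and saline differed from wild type by -0.44 ± 0.36 (adjusted p = 0.526).

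Col4a6, the partner of Col4a5 in Bowman's capsule, was scarce, with a mean of 153 reads per library in wild type, 123 with saline and 52.9 with atrasentan. Its levels were 7.07, 2.99, 5.56, 2.74 and 2.36 CPM in wild type. With saline they were 3.02, 2.24, 2.67, 5.13 and 2.94 CPM. With atrasentan they ran from 0.756 to 2.32 CPM, with a median of 1.43, all below wild type and overlapping saline at 1 library of each group. Col4a6 fell by 1.25 ± 0.32 on the log2 scale against saline (adjusted p = 0.00703) and by 1.62 ± 0.32 against wild type (adjusted p = 0.00121). Of 14 markers of the parietal epithelium, which lines Bowman's capsule, 6 fell and none rose with atrasentan against saline, and 4 fell and 1 rose against wild type. Of all genes, 18.5% fell and 15.3% rose against saline, and 14.5% and 14.7% against wild type. The summed level of the parietal markers ran from 234 to 334 CPM in wild type, 359 to 679.6 with saline and 208 to 497 with atrasentan, none was at 0 in all libraries, and their part in the fall of Col4a6 was not tested. Over all libraries Col4a6 correlated with the mean of these markers at r = 0.58 (0.080 after subtracting group means). With the mean of podocyte markers it had r = 0.85 (0.68). Against wild type, Col4a3, Col4a4, Col4a5 and Col4a6 were the 4 of 9 genes that lay lower without overlap, beside 7.06% of all genes.

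Col4a1, the chain that fills most places in the developmental trimer, was the most abundant of the 9 genes. Its levels were 1077, 923, 776, 1863 and 1095 CPM in wild type. With saline they were 1064, 1731, 1589, 1499 and 1334 CPM. With atrasentan the lowest was 1335, the median 2214 and the highest 2919 CPM. Wild type library 4 stood above all saline libraries and above 3 of the 7 atrasentan libraries. Atrasentan libraries 5 and 7, at 1335 and 1605 CPM, lay within the range of the saline libraries, so the groups overlapped in every comparison. Col4a1 rose 1.83-fold in atrasentan against wild type mice (log2 fold change 0.87 ± 0.22, adjusted p = 0.0067). Against saline the difference was 0.54 ± 0.22 (95% interval 0.081 to 0.99, adjusted p = 0.0636), and it passed without atrasentan library 5 (0.62, adjusted p = 0.0302) and without wild type library 4 (0.54, adjusted p = 0.0317). It also passed with the saline and atrasentan libraries alone in the fit (0.53, adjusted p = 0.0491) and without atrasentan libraries 2 and 5 (0.68, adjusted p = 0.0245). Saline differed from wild type by 0.33 ± 0.23 (adjusted p = 0.449).

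Col4a2, the obligate partner of Col4a1, stood at 695, 444, 438, 1029 and 572 CPM in wild type. With saline it stood at 714, 1084, 1068, 1003 and 816 CPM. With atrasentan it ran from 984 to 2449 CPM, with a median of 1492. Only atrasentan library 5, at 984 CPM, lay within the range of the saline libraries, and it was also the only 1 below wild type library 4. Col4a2 rose 1.64-fold against saline (log2 fold change 0.72 ± 0.24, adjusted p = 0.0268) and 2.42-fold against wild type (1.27 ± 0.24, adjusted p = 0.000834). The call against saline was lost without saline library 1 (0.63, adjusted p = 0.0699), without saline library 5 (0.67, adjusted p = 0.0625) and without saline libraries 1 and 3, which held the most proximal tubule RNA (0.66, adjusted p = 0.126). Saline differed from wild type by 0.56 ± 0.25 (unadjusted p = 0.0388, adjusted p = 0.201). No member lay higher without overlap in a comparison, beside 6.07% of all genes against saline and 6.16% against wild type.

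**Figure D2:**
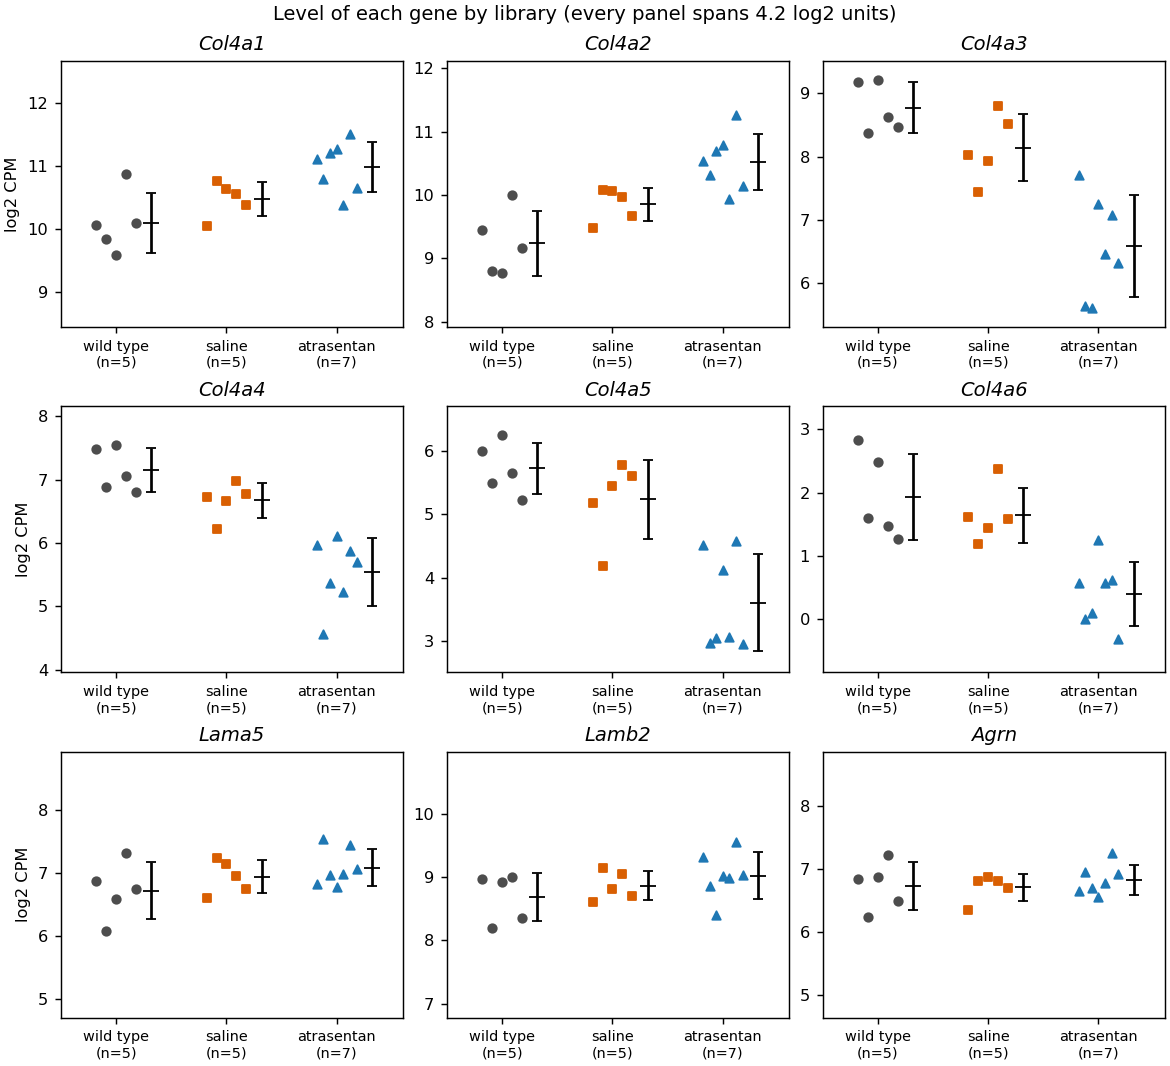
Log2 CPM of the 9 genes, 1 symbol per library (grey circles wild type, orange squares saline, blue triangles atrasentan) with the group mean and SD in black; every panel spans the same number of log2 units. All 7 atrasentan libraries lie below every other library for Col4a4 and below every wild type library for Col4a3, Col4a5 and Col4a6, where 1 or 2 of them lie above saline library 2. For Col4a1 and Col4a2 the atrasentan means are the highest with overlapping ranges, and the groups of Lama5, Lamb2 and Agrn cover one another.

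The partners of collagen IV showed no difference that passed. Lamb2, whose loss causes the nephrotic Pierson syndrome, stood at 499.8, 293, 483, 513 and 327 CPM in wild type. With saline it stood at 391, 564, 449, 532 and 416 CPM, and with atrasentan it ran from 337 to 756 CPM with a median of 516. The groups overlapped broadly. The log2 differences were 0.15 (95% interval -0.26 to 0.57) for saline against wild type, 0.19 (-0.20 to 0.57) for atrasentan against saline and 0.34 (-0.048 to 0.72) for atrasentan against wild type. The adjusted p-values were 0.723, 0.452 and 0.177.

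Lama5, the laminin alpha chain of the mature membrane, stood at 117, 68.0, 95.7, 159.8 and 107 CPM in wild type. With saline it stood at 97.4, 149.8, 141, 124 and 107 CPM, and with atrasentan it ran from 109.9 to 185 CPM with a median of 127. Its log2 differences were 0.18 (95% interval -0.24 to 0.59), 0.15 (-0.23 to 0.54) and 0.33 (-0.055 to 0.72) in the same order, with adjusted p-values of 0.669, 0.539 and 0.186. Only without wild type library 4, the highest of its group, did the difference of atrasentan from wild type pass (0.51, adjusted p = 0.0428).

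Agrn had the smallest difference of the 9 genes in each comparison. It stood at 114, 75.9, 117, 149 and 89.7 CPM in wild type, at 81.8, 112, 117, 112 and 103 CPM with saline, and between 93.8 and 152 CPM with atrasentan, with a median of 109.6. Its log2 differences were -0.052 (95% interval -0.40 to 0.29), 0.12 (-0.20 to 0.44) and 0.073 (-0.25 to 0.39), with adjusted p-values of 0.901, 0.55 and 0.755, and its sign turned in atrasentan against wild type with upper-quartile scaling and in both comparisons with wild type when single libraries were left out. For these 3 genes a p that misses the threshold does not show that levels did not differ.

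Dividing CPM by the exon length in kilobases gives RPKM, which puts the genes on one scale. In wild type the order of mean level was Col4a1 (154 ± 56.4), Col4a2 (96.1 ± 36.8), Lamb2 (69.6 ± 17.2), Col4a3 (45.1 ± 12.8), Col4a4 (13.7 ± 3.33), Agrn (11.7 ± 3.01), Lama5 (9.61 ± 2.94), Col4a5 (8.12 ± 2.31) and Col4a6 (0.520 ± 0.259). Neighbours in this order overlapped in range except Col4a3 with Col4a4 and Col4a5 with Col4a6. With saline the ranges separated Col4a2 (142 ± 24.8) from Lamb2 (77.3 ± 12.3) and Lamb2 from Col4a3 (29.8 ± 10.7), and Col4a4 (9.74 ± 1.75) stood below Agrn and Lama5 with overlap. With atrasentan Col4a3 (10.96 ± 5.96 RPKM) stood sixth, below Agrn (12.4 ± 2.11) and Lama5 (12.1 ± 2.58) with overlapping ranges, and Col4a1 (281 ± 73.6) and Col4a2 (232 ± 74.1) stood clear of Lamb2 (87.9 ± 21.7).

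The mature chains made up a different share of collagen IV message in each group. Col4a3, Col4a4 and Col4a5 together gave 22.3% ± 8.05 of the summed collagen IV RPKM in wild type, 12.2% ± 3.96 with saline and 3.35% ± 1.31 with atrasentan. The share was 12.8% to 34.1% in wild type, 6.44% to 15.5% with saline and 1.73% to 5.49% with atrasentan, so that every atrasentan library lay below every other. The summed collagen IV level itself was 317 ± 89.7 RPKM in wild type, 381 ± 56.5 with saline and 531 ± 151 with atrasentan, with overlapping ranges. It was set mainly by Col4a1 and Col4a2, which held 77.6%, 87.7% and 96.6% of the sum.

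On a log scale, the balance of mature against developmental collagen IV was taken as the mean log2 CPM of Col4a3, Col4a4 and Col4a5 minus that of Col4a1 and Col4a2. In wild type it was -2.20, -2.41, -1.52, -3.33 and -2.80. With saline it was -3.13, -4.47, -3.67, -3.08 and -3.06. With atrasentan it ran from -6.28 to -4.77, with a median of -5.40. Every atrasentan library lay below every library of the other groups, and the saline and wild type ranges met at wild type library 4. The mean was -2.45 ± 0.68 in wild type, -3.48 ± 0.61 with saline and -5.51 ± 0.54 with atrasentan. The differences were -1.03 for saline against wild type, -2.03 for atrasentan against saline and -3.06 for atrasentan against wild type. They are given without a p, since the balance is a score over chosen genes. The drop of the mature mean supplied -1.44 of the difference between atrasentan and saline, and the higher developmental mean the other 0.59.

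**Figure D3:**
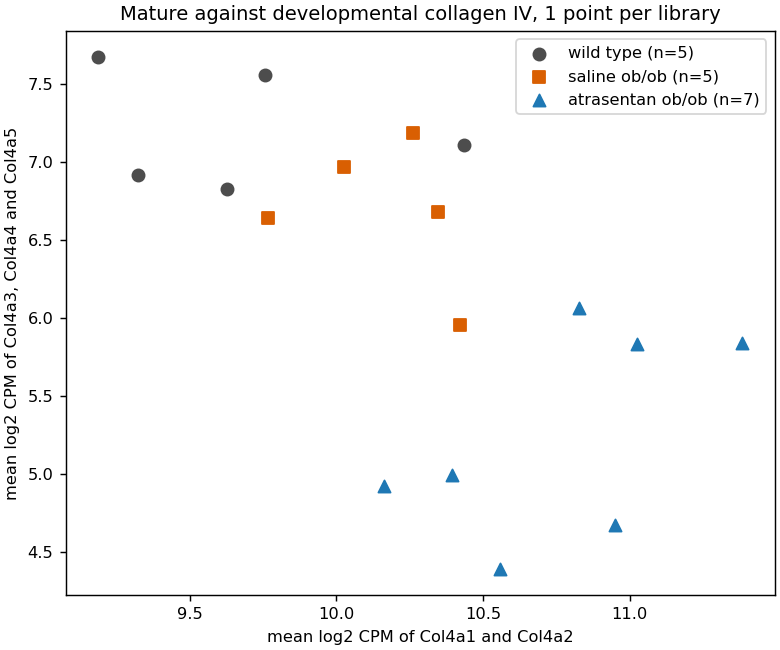
Mean log2 CPM of Col4a3, Col4a4 and Col4a5 (vertical axis) against that of Col4a1 and Col4a2 (horizontal axis), 1 symbol per library. Atrasentan libraries occupy the lower right, wild type libraries the upper left apart from wild type library 4, and saline libraries lie between them.

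Ratios within each set were compared next. The log2 ratio of Col4a2 to Col4a1 CPM was -0.86 ± 0.16 in wild type, -0.62 ± 0.064 with saline and -0.46 ± 0.10 with atrasentan, where every library lay above every saline and wild type library. The ranges with saline and atrasentan almost touched, at -0.573 in saline library 3 and -0.570 in atrasentan library 1. Col4a3 to Col4a4 was 1.61 ± 0.086, 1.47 ± 0.29 and 1.04 ± 0.48, with overlap between the groups. Col4a3 to Col4a5 was level at 3.04 ± 0.16, 2.90 ± 0.28 and 2.98 ± 0.39. Col4a3 and Col4a5 thus kept their ratio within the spread between mice, while the mean ratio of Col4a3 to Col4a4 was lower with atrasentan within overlapping ranges.

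Across the 17 libraries, levels within each collagen set ran in parallel. These correlations are descriptions of log2 CPM over libraries that share groups, depth scaling and tissue composition, so each is given also after subtracting the group means. Col4a1 and Col4a2 had r = 0.98 (0.97 within groups), Col4a3 and Col4a4 r = 0.96 (0.85), and Col4a3 and Col4a5 r = 0.97 (0.88). Col4a5 and Col4a6, the more distant pair on the X chromosome, had r = 0.90 (0.69). Between the sets, Col4a1 and Col4a3 had r = -0.58 over all libraries and 0.087 within groups, so the opposite movement lay between the groups and not among mice of one group. Lama5 and Agrn had r = 0.83 (0.86).

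The genes most like each set were taken by correlation among 9930 genes with a mean of at least 10 CPM. For the mean of Col4a3, Col4a4 and Col4a5 they were Sh3bgrl2 (r = 0.99, 0.98 within groups), the peptidases Enpep (0.99, 0.97) and Dpp4 (0.99, 0.97), Epb41l5 (0.99, 0.95) and Iqgap2 (0.98, 0.94). Enpep, which degrades angiotensin and is carried by podocytes and proximal tubule, stood at 648 CPM in wild type, 331 with saline and 79.1 with atrasentan. For the mean of Col4a1 and Col4a2 they were the actin crosslinker Flna (0.97, 0.91), Mpdz (0.96, 0.93), the integrin activator Tln1 (0.96, 0.91), Itga9 (0.95, 0.91) and Nid1 (0.95, 0.87), whose product nidogen bridges laminin and collagen IV. Flna stood at 448 CPM in wild type, 630.5 with saline and 1026 with atrasentan, and Nid1 at 314, 437 and 693 CPM.

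The mature chains followed podocyte markers. The mean log2 CPM of 26 podocyte markers, none of them a collagen or laminin gene, was 8.09 ± 0.28 in wild type, 7.33 ± 0.36 with saline and 6.69 ± 0.49 with atrasentan, and their summed level ran from 12601 to 19408, 8153 to 14476 and 5769 to 10397 CPM. None of the 26 was at 0 in all libraries. Of the 26, 10 fell and none rose in saline against wild type mice, 9 fell and 1 rose in atrasentan against saline, and 21 fell and 1 rose in atrasentan against wild type. The shares of all genes that fell in these 3 comparisons were 1.91%, 18.5% and 14.5%. Without saline libraries 1 and 3 none of the 26 passed in saline against wild type, where 0.294% of all genes did, and their median log2 fold change there was -0.58 in place of -0.81. In bulk tissue, fewer podocytes and less RNA per podocyte cannot be told apart. Against this mean over 17 libraries, Col4a3 had r = 0.96 (0.94 within groups), Col4a4 0.95 (0.90), Col4a5 0.92 (0.85) and Col4a6 0.85 (0.68), while Lamb2 had -0.069 (0.58).

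With the podocyte mean as a covariate in the edgeR fit, the falls against saline were smaller and 3 of the 4 were still called, beside 28.1% of all genes in that fit: Col4a3 at -0.63 (adjusted p = 0.00806), Col4a4 at -0.55 (adjusted p = 0.00678) and Col4a5 at -0.81 (adjusted p = 0.0138). Col4a6 at -0.61 no longer passed (adjusted p = 0.158). Against wild type none of the 4 passed with that covariate, beside 11.5% of all genes: Col4a3 was -0.13 (adjusted p = 0.738), Col4a4 -0.32 (adjusted p = 0.324), Col4a5 -0.23 (adjusted p = 0.677) and Col4a6 -0.21 (adjusted p = 0.808). The podocyte mean ran from 7.80 to 8.46 in wild type and from 6.05 to 7.29 with atrasentan, without overlap. Between these groups the fit therefore cannot tell the podocyte mean from the group itself. In that fit Col4a2 was 1.61 higher against wild type (adjusted p = 0.0215), Col4a1 at 1.10 lost its call (adjusted p = 0.0718), and Lamb2 at 0.98 gained one (adjusted p = 0.0389). For saline against wild type the signs of the 4 turned with the covariate (0.49, 0.23, 0.57 and 0.41 for Col4a3, Col4a4, Col4a5 and Col4a6), with none of them called.

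The podocyte mean was also subtracted from each gene in every library. Against wild type this did not give the same as the covariate for Col4a3, Lama5 and Agrn, among others. Col4a3 lay above the podocyte mean by 0.68 ± 0.15 in wild type and 0.82 ± 0.23 with saline, and at -0.11 ± 0.38 with atrasentan, where every library was below every wild type library. Col4a4 was -0.93 ± 0.080, -0.65 ± 0.23 and -1.15 ± 0.20 relative to it, and every atrasentan library lay below every saline library. Lamb2 lay above the podocyte mean by 0.60 ± 0.27 in wild type, by 1.54 ± 0.40 with saline, without overlap, and by 2.33 ± 0.36 with atrasentan. In the fit without covariates Lamb2 did not pass, while the podocyte mean subtracted here was 8.09, 7.33 and 6.69 in the same order. A level gene therefore rises on this measure. Lama5 and Agrn also lay higher with atrasentan than in wild type, by 1.75 and 1.49, without overlap. Unsubtracted and without covariates, they differed there by 0.33 and 0.073 on the log2 scale. With 1 library left out these differences were 0.20 to 0.51 and -0.032 to 0.21. Under all 28 alternatives, covariate fits included, they were 0.038 to 0.51 and -0.032 to 0.21. The lower end for Lama5 came with the podocyte covariate.

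**Figure D4:**
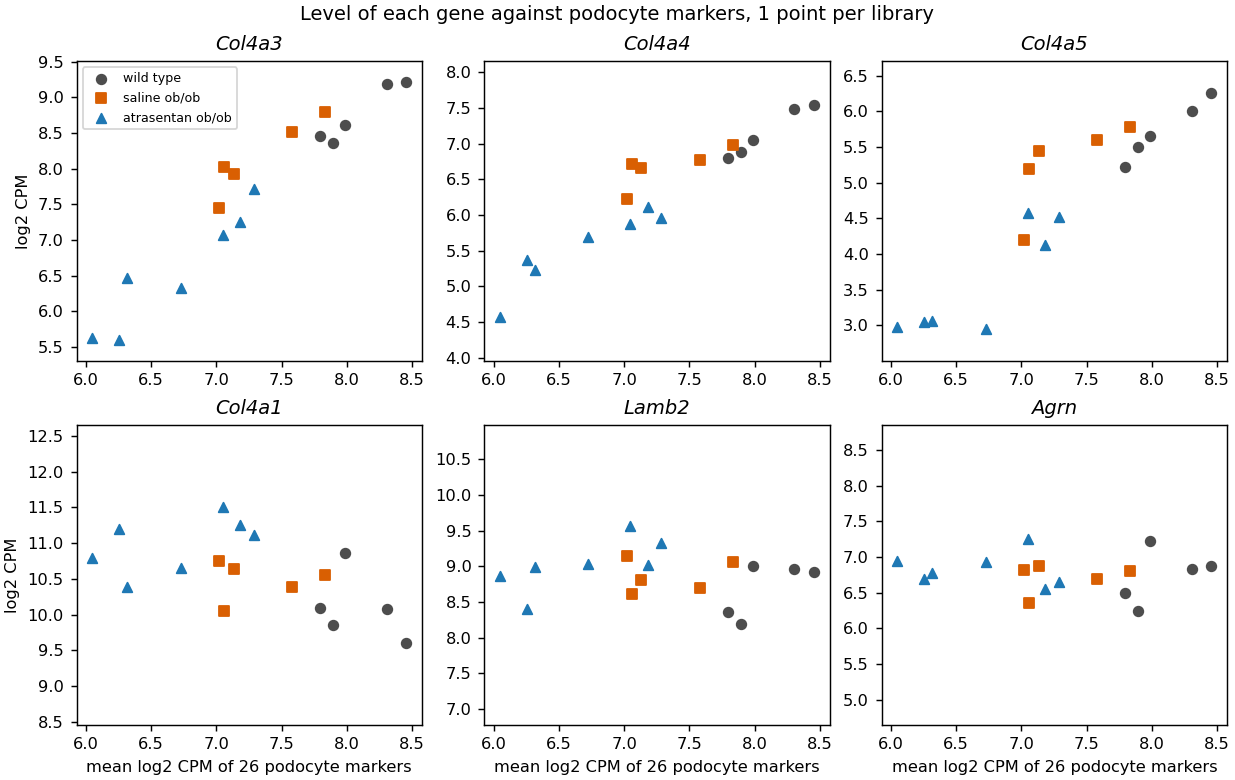
Log2 CPM of 6 of the 9 genes (vertical axes) against the mean log2 CPM of 26 podocyte markers (horizontal axes), 1 symbol per library. Col4a3, Col4a4 and Col4a5 climb with the podocyte mean, and Col4a1, Lamb2 and Agrn do not.

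Markers of other glomerular cells rose more often than they fell with atrasentan against saline. Of 20 markers of mesangium and smooth muscle, 12 rose and none fell in atrasentan against saline mice, and their summed level ran from 8606 to 10995 CPM in wild type, 7710.4 to 10634 with saline and 10933 to 18456 with atrasentan. Of 20 markers of glomerular endothelium 13 rose and none fell, with sums of 24931 to 28285, 22447 to 41157 and 33895 to 48192 CPM. Of 15 macrophage markers 11 rose and none fell, with sums of 318 to 761, 308 to 517 and 483 to 1641 CPM. In that comparison 15.3% of all genes rose and 18.5% fell. Without saline libraries 1 and 3, where 14.0% of all genes were called against saline, 8 of the mesangium markers, 2 of the endothelium markers and 6 of the macrophage markers rose and none fell. No marker of these lists was at 0 in all libraries. Col4a1 correlated with the mesangium mean at r = 0.81 (0.61 within groups) and with the endothelium mean at r = 0.58 (0.038 within groups). For Col4a2 these were 0.81 (0.53) and 0.60 (-0.046), so within groups only the mesangium mean ran with the 2 chains. The part of these cells in the rise of Col4a1 and Col4a2 was not tested.

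Tubule RNA also differed. Of 22 proximal tubule markers 8 rose and 1 fell in saline against wild type mice, and 20 fell with atrasentan against saline, with sums of 2309 to 4959 CPM in wild type, 4127 to 22389 with saline and 407 to 3833 with atrasentan. Of all genes, 3.21% rose and 1.91% fell in saline against wild type, and 18.5% fell with atrasentan against saline. Without saline libraries 1 and 3 none of the 22 rose and 1 fell in saline against wild type (median log2 fold change 1.10 in place of 1.95), and 17 fell with atrasentan against saline. All 4 falls of the collagen chains against saline were still called without those libraries. In that fit 0.294% of all genes were called in saline against wild type and 14.0% in atrasentan against saline. With the podocyte mean minus the proximal tubule mean as a covariate, 3 of the 9 genes passed against saline, beside 4.31% of all genes: Col4a3 at -1.95 (adjusted p = 0.0233), Col4a4 at -1.38 (adjusted p = 0.0212) and Col4a6 at -1.73 (adjusted p = 0.0306). Col4a5 at -1.62 (adjusted p = 0.053) and Col4a2 at 0.91 (adjusted p = 0.108) did not.

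Other basement membrane genes did not move as 1 block. Of the 9 other laminin chains, 1 rose and none fell in saline against wild type mice, 1 rose and 2 fell with atrasentan against saline, and 2 rose and none fell against wild type. Of all genes, 3.21% rose and 1.91% fell in saline against wild type. With atrasentan 15.3% rose and 18.5% fell against saline, and 14.7% rose and 14.5% fell against wild type. The atrasentan counts of so few chains are near these shares. Lama1, a chain of embryonic and tubular basement membranes, rose from 1.04 ± 0.365 CPM in wild type to 3.17 ± 1.91 with saline, by 1.61 ± 0.46 on the log2 scale (adjusted p = 0.04995). With atrasentan (0.775 ± 0.401 CPM) it fell by 2.03 ± 0.42 against saline (adjusted p = 0.00174). No laminin chain passed in saline against wild type with upper-quartile scaling, with the podocyte covariate or without saline libraries 1 and 3. Without those libraries 0.294% of all genes passed there. With atrasentan against saline 1 chain rose and none fell without them, beside 14.0% of all genes called. Lama2, a chain of mesangial matrix and muscle, rose with atrasentan (23.7 ± 7.52 CPM) by 0.65 ± 0.19 against saline and by 1.21 ± 0.19 against wild type (adjusted p = 0.0135 and 0.000209). Lamb3 was near the limit of detection with atrasentan (0.191 ± 0.196 CPM against 0.784 ± 0.306) and fell by 2.05 ± 0.65 (adjusted p = 0.0218). Lamc1, the gamma chain that partners Lama5 and Lamb2, rose by 0.65 ± 0.22 against wild type (adjusted p = 0.0338).

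Of 22 other basement membrane proteins, 2 rose and none fell in saline against wild type, 5 rose and 5 fell with atrasentan against saline, and 8 rose and 5 fell against wild type. The shares of all genes that rose and fell in these 3 comparisons were 3.21% and 1.91%, 15.3% and 18.5%, and 14.7% and 14.5%. Col8a1, a short-chain collagen of vascular membranes, rose in all 3: from 47.6 ± 12.2 CPM in wild type to 83.9 ± 11.3 with saline (log2 fold change 0.82 ± 0.19, adjusted p = 0.0254) and to 290 ± 66.4 with atrasentan (1.79 ± 0.19 above saline, adjusted p = 6.44e-05, and 2.61 ± 0.20 above wild type, adjusted p = 6.9e-07). Tinag, a tubular basement membrane antigen, rose by 1.76 ± 0.50 with saline (adjusted p = 0.0485) and fell by 3.04 ± 0.46 with atrasentan against saline (adjusted p = 0.000285), in step with the tubule markers. Its relative Tinagl1 rose by 0.80 ± 0.16 against saline and by 1.11 ± 0.16 against wild type (adjusted p = 0.00144 and 0.000109). Without saline libraries 1 and 3 none of the 22, Col8a1 and Tinag included, passed in saline against wild type, where 0.294% of all genes did. With atrasentan against saline 4 rose and 2 fell without them, beside 14.0% of all genes called. Npnt, the podocyte-made integrin ligand nephronectin, fell by 1.92 ± 0.31 against wild type (129 ± 56.0 against 486 ± 113 CPM, adjusted p = 0.000222).

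Genes that modify and fold collagen rose more often than they fell with atrasentan. Of the 26 found of 27 listed, none passed in saline against wild type mice, 11 rose and 2 fell against saline, and 13 rose and 3 fell against wild type. Of all genes, 15.3% rose and 18.5% fell against saline, and 14.7% and 14.5% against wild type. The median log2 fold change of the 26 was 0.33 against saline and 0.37 against wild type, beside all-gene medians within 0.01 of 0. Crtap, a subunit of the prolyl 3-hydroxylase complex, rose by 0.79 ± 0.11 against saline (231 ± 32.2 against 134 ± 10.6 CPM, adjusted p = 0.000205). Fkbp10, a collagen-folding isomerase, rose by 0.79 ± 0.12 against saline and by 1.17 ± 0.12 against wild type (adjusted p = 0.000311 and 1.08e-05). P3h4, a further partner of collagen hydroxylation, rose by 0.56 ± 0.091 against saline (adjusted p = 0.000393). The collagen galactosyltransferases went apart against wild type, where Colgalt1 rose by 0.61 ± 0.097 and Colgalt2 fell by 1.25 ± 0.19 (adjusted p = 0.000236 and 0.000147).

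Of the receptors that bind the membrane, 20 were tested of 21 listed. Of the 20, 1 rose and 1 fell in saline against wild type, beside 3.21% and 1.91% of all genes. With atrasentan against saline 4 rose and 4 fell, near the shares of all genes (15.3% higher and 18.5% lower). Against wild type 6 rose and 5 fell, beside 14.7% and 14.5% of all genes. Without saline libraries 1 and 3 none of them passed in saline against wild type, where 0.294% of all genes did. With atrasentan against saline 1 rose and 3 fell without those libraries, where 14.0% of all genes were called. In saline against wild type Itgb3 rose by 1.39 ± 0.39 (32.3 ± 30.4 against 12.3 ± 1.86 CPM, adjusted p = 0.0465), with the saline libraries from 16.1 to 86.5 CPM, and Bcam, a receptor of the Lama5 chain, fell by 0.42 ± 0.12 (adjusted p = 0.0492). With atrasentan the collagen receptor kinase Ddr2 rose by 1.14 ± 0.20 against saline and by 1.44 ± 0.20 against wild type (adjusted p = 0.000609 and 8.61e-05). The integrin chain Itgb8 fell by 1.84 ± 0.26 and by 1.74 ± 0.26 (adjusted p = 0.000192 and 0.000127). The epithelial Itgb6 fell by 3.04 ± 0.53 against saline (adjusted p = 0.000622), and the syndecan Sdc4 fell by 1.60 ± 0.21 against wild type (adjusted p = 4.77e-05).

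Enzymes that degrade collagen IV or its partners, with their inhibitors, also rose more often than they fell with atrasentan. Of 19 tested of 21 listed, 3 rose and 2 fell in saline against wild type mice, 7 rose and none fell with atrasentan against saline, and 11 rose and 2 fell against wild type. The shares of all genes that rose and fell in these 3 comparisons were 3.21% and 1.91%, 15.3% and 18.5%, and 14.7% and 14.5%. The collagenase Mmp14 rose by 0.88 ± 0.15 against saline and by 1.05 ± 0.15 against wild type (adjusted p = 0.000481 and 0.0001). The gelatinase Mmp2, which Mmp14 activates, rose by 0.88 ± 0.18 and by 1.31 ± 0.18 (adjusted p = 0.00155 and 7.37e-05). Ctss, a cathepsin of macrophages, rose by 1.74 ± 0.31 against saline (adjusted p = 0.000729), beside the higher macrophage markers. In saline against wild type the inhibitor Timp4 rose by 2.84 ± 0.55 from 0.655 ± 0.276 to 4.71 ± 3.24 CPM (adjusted p = 0.0116), the cathepsin Ctsb by 0.52 ± 0.12 (adjusted p = 0.025) and the matrix-bound inhibitor Timp3 by 0.74 ± 0.18 (adjusted p = 0.0306). None of the 19 passed there without saline libraries 1 and 3, beside 0.294% of all genes. With atrasentan against saline 4 rose and none fell without them, beside 14.0% of all genes called. Against wild type Timp4 rose by 3.69 ± 0.55 with atrasentan (adjusted p = 0.000128).

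**Figure D5:**
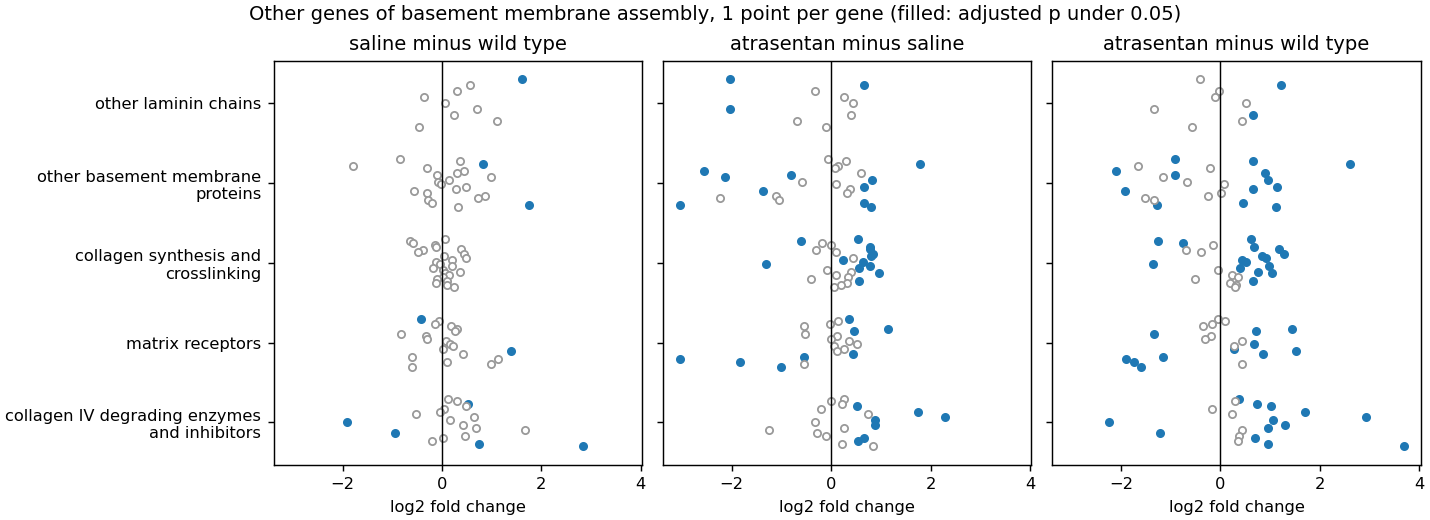
Log2 fold change of the genes tested in each of 5 lists (1 point per gene, rows) in the 3 comparisons (panels), with genes at an adjusted p under 0.05 filled. Few genes are filled for saline against wild type, and with atrasentan the filled points of collagen synthesis and of the degrading enzymes lie mostly to the right of 0.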

How the data were processed

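The authors deposited whole-number counts per gene for 17 libraries and normalized log2 values made by a transform that no source used here states. The submitters' processing notes name STAR, HTSeq, DESeq2, edgeR, limma and GRCm38 without versions or roles. From the counts, groups were compared in edgeR 4.0.16 under R 4.3.3 (glmQLFit and glmQLFTest, TMM scaling with factors from 0.892 to 1.15, filterByExpr by group, 1 fit of all 17 libraries, Benjamini-Hochberg adjustment over 17766 genes, two-sided, called at an adjusted p under 0.05). The 5 HTSeq lines that name no gene stayed out. They hold 23.4% to 31.8% of a library's reads as not uniquely aligned, and reads of near-identical genes are lost there. CPM used TMM-scaled library sizes, log2 CPM a prior count of 2, and RPKM the union of exons in GENCODE release M21 on GRCm38, which gave symbols for 99.8% of IDs. Promoter sequences came from RefSeq on the same build.

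Gene reads per library were 29161833 to 52528747. Library pairs within a group differed by a chi-square per degree of freedom of 23.95 to 246.75, so none repeats another. Per the labels, the numbers of mice equal those of libraries, and p-values measure the spread between these libraries. The script was tested on simulated data. The 9 genes and all lists were chosen with earlier results of these data known. Named were the 9 genes, the 3 called genes with the lowest adjusted p of each pathway list in each comparison, and the 5 genes most correlated with each collagen set. Levels were printed for 3 of the latter, chosen after their values were seen. Alternatives were DESeq2 1.42.0, limma 3.58.1 (voom, and limma on the authors' log2 values), other scalings, no filter, marker covariates, and leaving libraries out.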

Additional observations from a re-analysis of the deposited data

How the results depend on the processing

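No paired analysis was possible because the labels number no replicates. The count of the 9 genes called was 0 for saline against wild type under all 28 alternatives. With 1 library left out it was 4 to 6 against saline and 6 to 7 for atrasentan against wild type. It fell to 3 against saline with the podocyte minus proximal tubule mean as a covariate, and to 2 against wild type with the podocyte mean, and the cause was not tested. The number of all genes called for saline against wild type was 1991 with DESeq2, 550 with limma-voom, 1430 with only those 2 groups in the fit, 6 with the podocyte minus proximal tubule covariate, 95 with the podocyte covariate, 54 without saline libraries 1 and 3, and 216 (without saline library 3) to 1523 (without saline library 4) with 1 library left out, in place of 910. With upper-quartile scaling 503 were higher and 483 lower, in place of 570 and 340. For atrasentan against saline it was 765 with the podocyte minus proximal tubule covariate, 2577 without saline libraries 1 and 3, and 4361 to 6338 with 1 library left out, in place of 6001. For atrasentan against wild type it was 2038 with the podocyte covariate and 4092 to 5622 with 1 library left out, in place of 5190. Signs turned for saline against wild type with the podocyte covariate (log2 0.49 for Col4a3, 0.23 for Col4a4, 0.57 for Col4a5, 0.41 for Col4a6 and 0.0084 for Agrn), with the podocyte minus proximal tubule covariate (0.14 for Col4a6), and without wild type library 4 or saline library 1 (0.085 and 0.0091 for Agrn, which ranged from -0.16 to 0.085 with 1 library left out). For atrasentan against wild type the sign of Agrn turned with upper-quartile scaling (-0.0078) and without wild type library 2 (-0.032) or atrasentan library 6 (-0.0075), in a range of -0.032 to 0.21. The balance of mature and developmental collagen IV ranged with 1 library left out from -1.25 to -0.78, from -2.28 to -1.91 and from -3.28 to -2.83 in the 3 comparisons. On the deposited normalized values it was -0.78, -1.50 and -2.27 in the same order, the smallest differences among its 22 alternatives.

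The depth limited Col4a6 most, with 26 to 319 reads per library. The labels give the groups differently worded genotypes, and markers of podocytes, tubule and other cells moved with the groups, so their share in the differences and that of the treatment cannot be told apart in bulk tissue.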
